A study of Caenorhabditis elegans with 2 samples.

Results

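Heat shock chaperones are the proteins that hold, fold and refold other proteins, and 9 of their genes in the nematode Caenorhabditis elegans were examined for binding of MES-4. The 6 genes usually expressed without stress, here called constitutive, are hsp-1, hsp-3, hsp-4, hsp-6, hsp-60 and hsp-110. The other 3, hsp-70, hsp-16.2 and hsp-16.41, are transcribed mainly on heat shock and are here called inducible. They are 9 of 19973 protein-coding nuclear genes. The genes were chosen by the peaks listed at them in these same data, so their counts and ranks below describe them and no test was made on them. The names constitutive and inducible come from general knowledge of the genes, since these data hold no measure of expression.

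The data are from chromatin immunoprecipitation with sequencing (ChIP-seq), in which DNA bound by a protein is recovered with an antibody and sequenced, here with anti-GFP. The animals were whole hermaphrodite young adults of strain RW10325, a transgenic line that stably expresses MES-4 with GFP and FLAG at its C terminus, 63 h after synchronization by bleaching and starvation at the L1 stage. Both samples were of this 1 group, as 2 biological replicates, so there was no untagged, mutant or heat-shocked group to compare with. The recovered chromatin came from the whole animal, so germline and somatic cells cannot be told apart, and the labels give no culture temperature or stress treatment. The peak lists held 440 reproducible, 12008 pooled, 15372 replicate 1 and 14947 replicate 2 peaks on the nuclear chromosomes, and read depth is unknown from them. The reproducible list held exactly the pooled peaks of rank 1 to 440 by signal value, the authors' measure of peak strength, which has its own scale in each list and is therefore given here with its rank. The other 3 lists are relaxed: the authors included background on purpose, and weak entries in them need not be binding sites. Nearly all peaks had one fixed width, 440 bp for 99.7% of pooled peaks, with the deposited summit at the centre, so the peak ends do not measure the extent of binding. A summit was counted at a gene if it fell between the gene's annotated ends or in the 500 bp before its 5' end.

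MES-4 is a methyltransferase that places methyl groups on lysine 36 of histone H3, and it is known for keeping this mark on genes expressed in the germline. HSP70 proteins bind unfolded stretches of other proteins and release them with ATP, HSP110 proteins exchange their nucleotide, HSP60 forms closed folding chambers in mitochondria, and small heat shock proteins hold unfolded proteins without ATP. Heat shock genes are switched on by the factor HSF-1, which binds repeats of GAA and TTC called heat shock elements. Endoplasmic reticulum chaperones answer instead to the unfolded protein response, and hsp-6 and hsp-60 to its mitochondrial counterpart.

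Sequences of 4 upstream regions and of the coding part of the hsp-1 peak are shown, since the peaks described below lie on these and the hsp-16 region carried none. Each was read from the RefSeq copy of the WBcel235 assembly (ce11) and runs 5' to 3' on the strand given. The 3 regions with peaks are 300 bases around the pooled summit, on the strand of the named gene. Regions around the pooled summits upstream of hsp-1 and in the 5' UTR of hsp-3 are not printed. In the 4 upstream regions capitals mark matches to a heat shock element, spelled as GAANNTTC followed directly by NNGAA, on either strand.
hsp-60 upstream, chrIII:1618976-1619275, plus strand: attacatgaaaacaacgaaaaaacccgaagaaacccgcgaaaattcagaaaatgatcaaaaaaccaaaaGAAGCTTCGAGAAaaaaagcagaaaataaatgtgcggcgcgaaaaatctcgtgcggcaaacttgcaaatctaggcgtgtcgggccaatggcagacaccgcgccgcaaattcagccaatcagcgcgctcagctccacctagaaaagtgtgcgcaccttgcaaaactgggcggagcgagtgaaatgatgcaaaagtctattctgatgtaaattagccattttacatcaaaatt
hsp-6 upstream, chrV:4826991-4827290, minus strand: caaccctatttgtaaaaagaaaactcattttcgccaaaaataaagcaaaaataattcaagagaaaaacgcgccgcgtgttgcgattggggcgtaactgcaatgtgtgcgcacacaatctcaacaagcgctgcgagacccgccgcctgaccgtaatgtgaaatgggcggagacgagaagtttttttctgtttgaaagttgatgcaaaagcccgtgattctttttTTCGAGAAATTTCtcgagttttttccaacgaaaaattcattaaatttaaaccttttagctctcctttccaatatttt
hsp-110 upstream, chrIII:8446924-8447223, minus strand: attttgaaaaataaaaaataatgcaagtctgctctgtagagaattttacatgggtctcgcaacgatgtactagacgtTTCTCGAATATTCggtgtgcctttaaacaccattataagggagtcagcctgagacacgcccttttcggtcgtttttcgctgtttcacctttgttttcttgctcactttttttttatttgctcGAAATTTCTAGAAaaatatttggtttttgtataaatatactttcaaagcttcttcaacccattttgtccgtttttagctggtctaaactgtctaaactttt
hsp-16.2 to hsp-16.41, chrV:1804958-1805177, plus strand: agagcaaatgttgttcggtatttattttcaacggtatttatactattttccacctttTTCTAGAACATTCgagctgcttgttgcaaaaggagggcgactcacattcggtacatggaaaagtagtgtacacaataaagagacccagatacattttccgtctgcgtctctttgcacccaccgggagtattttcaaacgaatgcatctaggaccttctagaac
hsp-1 end of coding sequence, chrIV:17281012-17281182, plus strand: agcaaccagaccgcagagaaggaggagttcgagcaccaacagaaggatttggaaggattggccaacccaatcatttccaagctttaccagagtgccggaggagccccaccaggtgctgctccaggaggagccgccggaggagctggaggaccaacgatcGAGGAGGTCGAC
In the hsp-1 stretch capitals mark the last 12 bases before the stop codon, which encode the C-terminal 4 residues by which cytosolic HSP70 proteins bind co-chaperones. The hsp-60 region had its match at bases 70 to 82 and its summit at base 151. The hsp-6 region had its match at bases 224 to 236 and its summit at base 150. The hsp-110 region had matches at bases 78 to 90 and 200 to 212, on either side of the summit at base 150. The hsp-16 region had a match at bases 58 to 70 and no peak in any list.

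This element was found in the 500 bp upstream of 6 of the 9 genes, against 650 of 19973 protein-coding genes, or 3.25%. The genes with a match were hsp-1, hsp-6 and hsp-110 among the constitutive ones, and hsp-70, hsp-16.2 and hsp-16.41 among the inducible ones. The match printed for hsp-60 lies more than 500 bp upstream of that gene and is not counted here. The 3.25% is for these 500 bp windows and not for regions around summits. Matches at hsp-16.2 lay 211 and 57 bp from its 5' end, and the match at hsp-16.41 lay 150 bp from its own. Between these genes, which face away from each other across 220 bp, the match 57 bp from hsp-16.2 and that 150 bp from hsp-16.41 are the same letters. The match 211 bp from hsp-16.2 runs past the end of this stretch into hsp-16.41, so it is not marked in the printed sequence. The match at hsp-70 lay 60 bp and that at hsp-1 lay 131 bp upstream. The shorter GAANNTTC occurred upstream of 29.8% of all genes. The letters TGACGTG, bound by XBP-1 in the unfolded protein response of the endoplasmic reticulum, occurred on either strand upstream of hsp-3 and hsp-4 at 125 and 76 bp, and upstream of 4.27% of all genes. A match describes these letters alone and is not evidence of a bound factor.

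In the reproducible list, 1 of the 6 constitutive genes, hsp-1, and 0 of the 3 inducible genes had a summit, against 1.45% of all protein-coding genes. In the pooled list all 6 constitutive genes and 1 of 3 inducible genes, hsp-70, had one, against 34.3% of all genes. Replicate 1 gave 6 of 6 and 1 of 3, against 40.6% of all genes. Replicate 2 gave 5 of 6 and 1 of 3, against 39.5%, and the constitutive gene without a summit there was hsp-4. The authors' −log10 q value of the best pooled summit was 2.06 at hsp-1, 1.81 at hsp-110 and 1.44 at hsp-6. It was 0.353 at hsp-3, 0.198 at hsp-60, 0.086 at hsp-70 and 0.0664 at hsp-4, and low values mark weak evidence. The signal values at hsp-70 and hsp-4, 33.88 and 32.72, were below the pooled median of 35.07. A pooled summit at these genes need not be a binding site. Because the genes were chosen with these lists in view, the shares set the scale for the counts and nothing further is read from them.

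**Figure D1:**
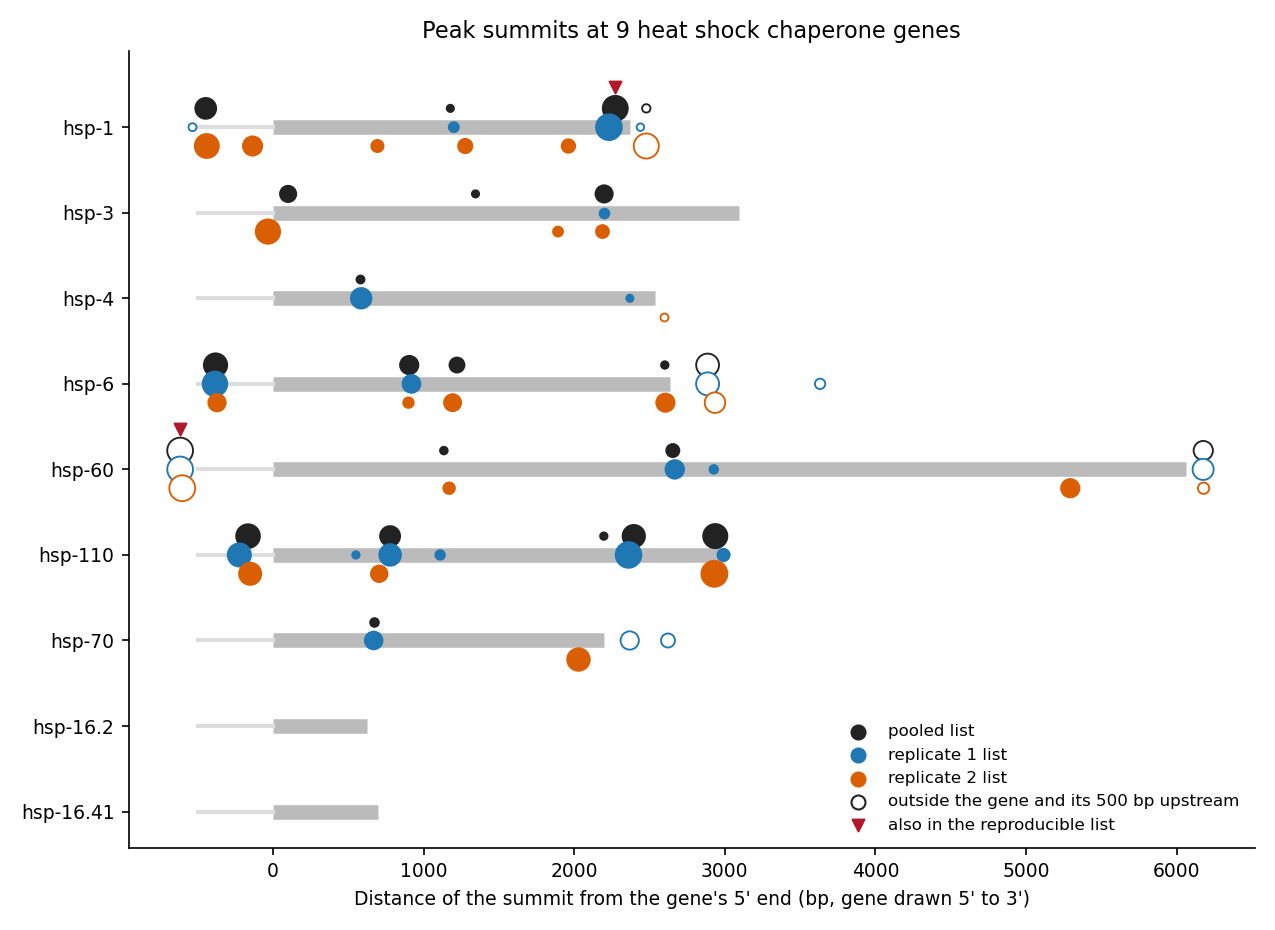
Each grey bar is a gene drawn 5' to 3' with its 500 bp upstream as a thin line, and each circle is a peak summit at its distance in bp from the 5' end, in the pooled list (black, above the bar), replicate 1 (blue, on it) or replicate 2 (orange, below it). Larger circles have a higher rank in their list, open circles lie outside the counted window, and red triangles mark the 2 reproducible peaks, at the 3' end of hsp-1 and 616 bp upstream of hsp-60. The bars of hsp-16.2 and hsp-16.41 carry no circle.

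Gene length bears on these counts. Of protein-coding genes under 1 kb, the class of both hsp-16 genes, 19% had a pooled summit. The share was 34.1% for genes of 2 to 3 kb, which hold hsp-1, hsp-4, hsp-6 and hsp-70, and 40.4% for genes of 3 to 4 kb, which hold hsp-3 and hsp-110. It was 57.5% for genes over 4 kb, which hold hsp-60 at 6062 bp. The constitutive genes together held 18 pooled summits, or 0.793 per kb of gene and upstream window, the inducible genes 1, or 0.199 per kb, and all protein-coding genes 0.14 per kb. In replicate 1 the constitutive genes had 0.661, the inducible genes 0.199 and all protein-coding genes 0.177 summits per kb. In replicate 2 these densities were 0.749, 0.199 and 0.171. The density of the inducible genes rests on a single summit in each list, all at hsp-70.

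In the pooled list and in replicate 1 the cytosolic constitutive chaperones ranked highest of the 9 genes by summits within the counting rule, while in replicate 2 hsp-3 at 691 stood between hsp-110 at 180 and hsp-1 at 794. The gene hsp-1 encodes the main constitutive HSP70 of the cytosol and lies on the plus strand at chrIV:17278959-17281330. Its reproducible peak spanned chrIV:17281012-17281451 with a signal value of 81.73, rank 381 of 440, where the weakest nuclear reproducible peak had 77.34. The summit lay in the 3' UTR, 50 bp past the last coding base and 98 bp before the end of the gene, and 171 bp of the peak lay over the coding sequence printed above. Replicate 1 had its summit there at rank 235 with a signal value of 52.57, also in the 3' UTR. Replicate 2 had no summit in the 3' UTR, and its strongest peak at this end had rank 460 with 39.57. The summit of that peak lay 108 bp past the annotated end, so it is outside the counted window. It fell in the 124 bp that separate hsp-1 from the convergent gene nra-1. The pooled list had a separate, weaker peak with its summit at the same point, at rank 7076. Replicate 1 also had a second peak there, at rank 11058, with its summit 69 bp past the end. The strongest summits of the replicates at this end were 248 bp apart.

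Further weaker peaks lay along hsp-1. A pooled summit 446 bp upstream had rank 1497, and replicate 2 had rank 794 at 439 bp upstream. Replicate 1 had rank 9831 there, with its summit 534 bp upstream and outside the window. A pooled summit in an intron had rank 11078 and lay within 220 bp of the snoRNA gene F26D10.24 inside hsp-1. Replicate 2 listed 5 summits within the window against 2 in replicate 1. Of the 5, 3 lay where replicate 1 had no summit and had ranks from 2459 to 5697.

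The gene hsp-110, the HSP110 nucleotide exchange factor of the cytosol, lies on the minus strand at chrIII:8443910-8446909 and had no reproducible peak. It had 5 pooled summits, the most of the 9 genes. The best ranked 592, with a signal value of 68.79, lay in the 3' UTR 62 bp before the gene's end and also fell in the upstream window of ufbp-1, which encodes a DDRGK domain protein. This region had rank 180 in replicate 2 but 5840 in replicate 1. The second pooled summit ranked 715, with 64.04, lay 165 bp upstream in the 443 bp shared head to head with rpn-3, which encodes a regulatory subunit of the proteasome, and also fell in the window of the ncRNA gene C30C11.14. Both replicates had it, at rank 1084 and rank 1402, with summits 72 bp apart. The strongest summit of replicate 1, rank 272, lay over a coding exon 570 bp from the strongest of replicate 2. The pooled list ranked that exon 1070, and replicate 2 had no peak overlapping it. A coding-exon region toward the 5' end had pooled rank 1740, with 1626 in replicate 1 and 3536 in replicate 2. The upstream region and this exon therefore ranked between 1084 and 3536 in both replicates, whereas the best-ranked region of each replicate was not strong in the other.

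**Figure D2:**
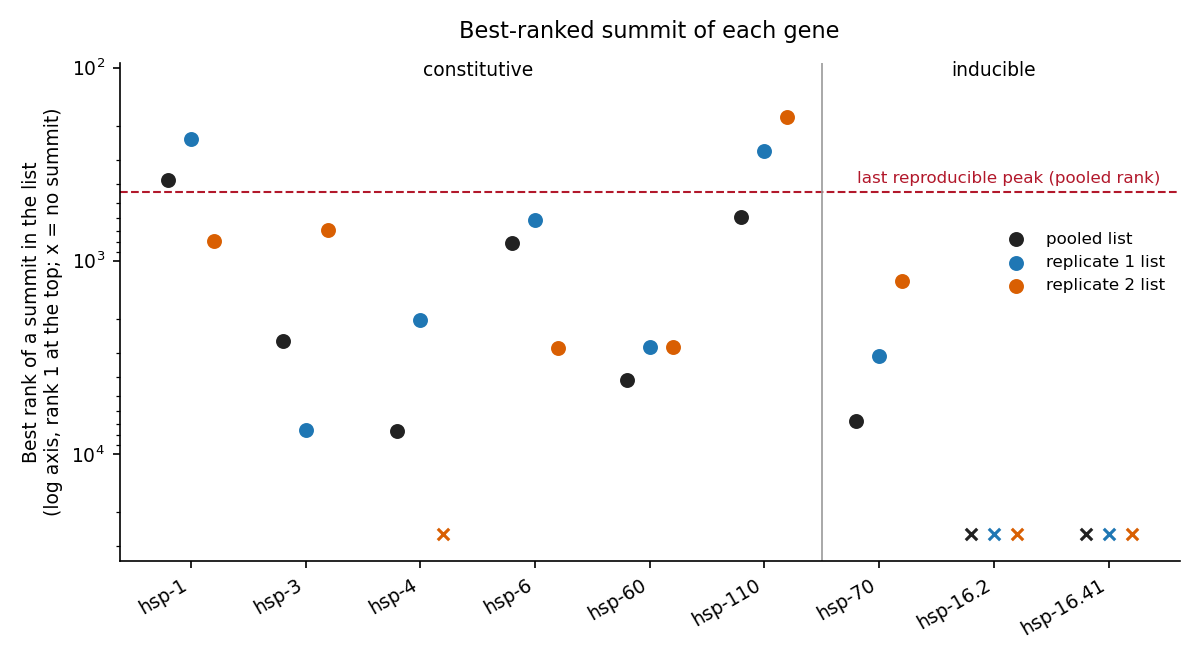
Best rank of any summit in each gene's window (log axis, rank 1 at the top) in the pooled list (black), replicate 1 (blue) and replicate 2 (orange), with crosses where a list had no summit and a dashed line at pooled rank 440, the last reproducible peak. The gene hsp-1 is the one member with a black point above the line. The replicates lie apart at hsp-3 (7573 and 691) and hsp-6 (617 and 2819), and the near-equal ranks at hsp-60 (2799 and 2791) come from different intron positions, 2668 and 5294 bp from the 5' end.

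In the pooled list and in replicate 1, the strongest peak within 1000 bp of each mitochondrial chaperone lay upstream, in the region shared with a gene that faces the other way. In replicate 2 this held for hsp-60 and not for hsp-6. The gene hsp-60 encodes the mitochondrial HSP60 and lies on the plus strand at chrIII:1619742-1625803. A reproducible peak near hsp-60, chrIII:1618906-1619345, lies just outside the counting rule, with its summit 616 bp upstream of the gene. That summit is 197 bp upstream of Y22D7AL.10, annotated in RefSeq as the mitochondrial 10 kDa heat shock protein, the co-chaperonin that caps the HSP60 chamber. The genes are 812 bp apart, so the peak is counted at Y22D7AL.10 and not at hsp-60. Its signal value was 107.0, rank 178 of 440, and it was the strongest peak within 1000 bp of any of the 9 genes in the pooled list. Replicate 1 had rank 256 and replicate 2 rank 201, with summits 14 bp apart. Within the rule hsp-60 had only intron summits, at pooled ranks 4166 and 8250. Replicate 1 had rank 2799 for the first and no overlapping peak for the second, and replicate 2 had none for the first and rank 6072 for the second. The best summit of replicate 2 within the rule, rank 2791, was another intron summit, at 5294 bp into the gene, where replicate 1 had no summit. A downstream region 116 bp past the gene's end had pooled rank 1960, with 1842 in replicate 1 and 6203 in replicate 2.

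The gene hsp-6 encodes the mitochondrial HSP70 and lies on the minus strand at chrV:4824124-4826760. Its best pooled summit ranked 814, with a signal value of 61.55, and lay 381 bp upstream in the 599 bp shared head to head with C37H5.5, a homolog of nucleolar complex protein 3. The ncRNA genes C37H5.15 and C37H5.16 share this summit too. Replicate 1 ranked it 617 and replicate 2 3186, with summits 14 bp apart. Coding-exon summits had pooled ranks 2255 and 3398, and a 3' UTR summit had 8623. In replicate 2 the 3' UTR summit, at rank 2819, was the best within the rule and stood above the upstream one. The first of these had a summit of both replicates, at ranks 3089 and 6782. Outside the rule, a pooled summit of rank 944 lay 250 bp past the gene's end, in the upstream window of adss-1, which encodes adenylosuccinate synthetase, with rank 1167 in replicate 1 and 1992 in replicate 2.

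Placement next to an opposed neighbour was common among the 9 genes. A head to head protein-coding neighbour lay within 1000 bp of 5 of them (hsp-6, hsp-60, hsp-110, hsp-16.2 and hsp-16.41), or 55.6%, against 17.5% of all protein-coding genes. Over all genes, 38.2% of those with such a neighbour had a pooled summit and 33.4% of the others did. The hsp-16 pair has this arrangement without a peak, and the 3 others have it with one. A peak between such genes cannot be assigned to one of them from its position.

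By best pooled rank, the endoplasmic reticulum HSP70 genes stood below hsp-1, hsp-110 and hsp-6. The gene hsp-3 lies on the minus strand at chrX:6089028-6092124. Its pooled summits ranked 2603 in a coding exon, 2943 in the 5' UTR and 10489 in another coding exon. The first had rank 7573 in replicate 1 and 5271 in replicate 2. Replicate 2 also had rank 691 with its summit 33 bp upstream, near the pooled 5' UTR summit, and replicate 1 had no peak overlapping that region. Of protein-coding genes on X, 8.31% had a summit among the 3000 strongest pooled peaks. The share was 7.79% on chromosome V, 10.9% on II, 13% on IV, 13.4% on I and 16.8% on III. The gene hsp-4, which is also strongly induced when proteins misfold in the endoplasmic reticulum, lies on the minus strand at chrII:7350112-7352645. Its only pooled summit ranked 7637 in a coding exon, with rank 2038 in replicate 1 and no overlapping peak in replicate 2. Replicate 1 had a further summit in a coding exon, at rank 14414 of 15372, 163 bp before the gene's end. The nearest summit of replicate 2 ranked 9536 and lay 61 bp past the end. These peaks of the replicates overlapped, but their summits fell on either side of the gene's end, and neither replicate ranked the region high.

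Among the inducible genes, hsp-70 alone had summits. It encodes a cytosolic HSP70 transcribed on heat shock and lies on the minus strand at chrI:9320325-9322519, inside the larger gene uggt-2, which encodes a UDP-glucose glycoprotein glucosyltransferase. Every summit at hsp-70 therefore also counts for uggt-2. The pooled summit ranked 6774, with a signal value of 33.88, and lay over a coding exon 670 bp from the 5' end. Replicate 1 had it at rank 3132 with its summit 1 bp away, and replicate 2 had no peak overlapping it. Replicate 2 had rank 1274 at a different place, 167 bp before the gene's end, in the upstream window of the tRNA gene C12C8.t6. Replicate 1 had summits at these tRNA genes too, C12C8.t6 and C12C8.t1, with ranks 2897 and 4846, at 175 and 429 bp past the end of hsp-70. The best replicate ranks at hsp-70 thus came from different positions.

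The genes hsp-16.2 at chrV:1804334-1804957 and hsp-16.41 at chrV:1805178-1805875 encode small heat shock proteins. Neither had a summit in the reproducible, pooled, replicate 1 or replicate 2 list. The nearest pooled summit lay 6442 bp from hsp-16.2 and 7286 bp from hsp-16.41, with rank 4698. In replicate 1 the nearest summits were 3124 and 3683 bp away, with ranks 15098 and 12443 of 15372. In replicate 2 they were 6438 and 7282 bp away, with rank 13964 of 14947. The nearest reproducible summit lay 63846 bp from hsp-16.2. No stretch of 50 bases in either gene or its 500 bp upstream occurred elsewhere in the nuclear genome, so the sequence of these genes is unique at that length. Of genes under 1 kb, 19% had a pooled summit, 22.2% one in replicate 1 and 21% one in replicate 2. Most genes of this size thus lacked one in each list.

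**Figure D3:**
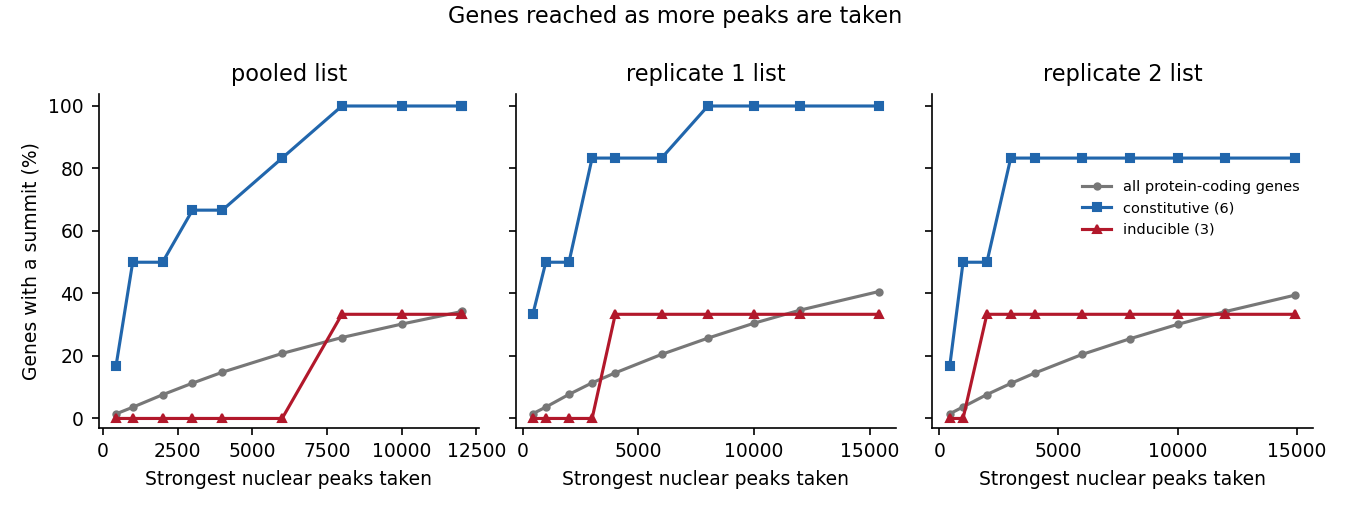
Share of genes with a summit (percent) when only the strongest nuclear peaks of a list are taken, from 440 up to the whole list, for all 19973 protein-coding genes (grey), the 6 constitutive genes (blue) and the 3 inducible genes (red), in the pooled list and each replicate. Among the 1000 strongest pooled peaks the blue line stands at 3 of 6 genes and the grey at 3.59%, and the red line leaves 0 between 6000 and 8000 pooled peaks.

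The order by best pooled rank was hsp-1 at 381, hsp-110 at 592, hsp-6 at 814, hsp-3 at 2603, hsp-60 at 4166, hsp-70 at 6774 and hsp-4 at 7637. Of all protein-coding genes, 1.26% ranked at least as high as hsp-1, 1.96% as hsp-110, 2.87% as hsp-6, 9.83% as hsp-3, 15.3% as hsp-60, 22.9% as hsp-70 and 24.9% as hsp-4. The replicates did not give one order. In replicate 1 it began with hsp-1 at 235, hsp-110 at 272 and hsp-6 at 617. In replicate 2 it began with hsp-110 at 180, hsp-3 at 691 and hsp-1 at 794. The constitutive gene hsp-4 stood below the inducible gene hsp-70 in the pooled list and in replicate 2, and above it in replicate 1. Of the 6 neighbouring pairs in the pooled order, only 1, hsp-110 above hsp-6, stood in that order in both replicates. The genes hsp-1 and hsp-110 were among the first 3 in each of the 3 relaxed lists.

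By position, 9 of the 19 pooled summits at the 9 genes lay in coding exons, 3 in 3' UTRs, 3 in introns, 3 upstream and 1 in a 5' UTR. The same breakdown was not made over all pooled summits, so no preference for a feature is read from it. Of the 19, 8, or 42.1%, had a summit of both replicates within 100 bp. Over all nuclear pooled summits this share was 27.4%, over those of rank 441 to 2000 it was 70.5%, and over the reproducible peaks it was 92%. The hsp-1 reproducible peak is among those without, since the replicate 2 summit lay 206 bp away.

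**Figure D4:**
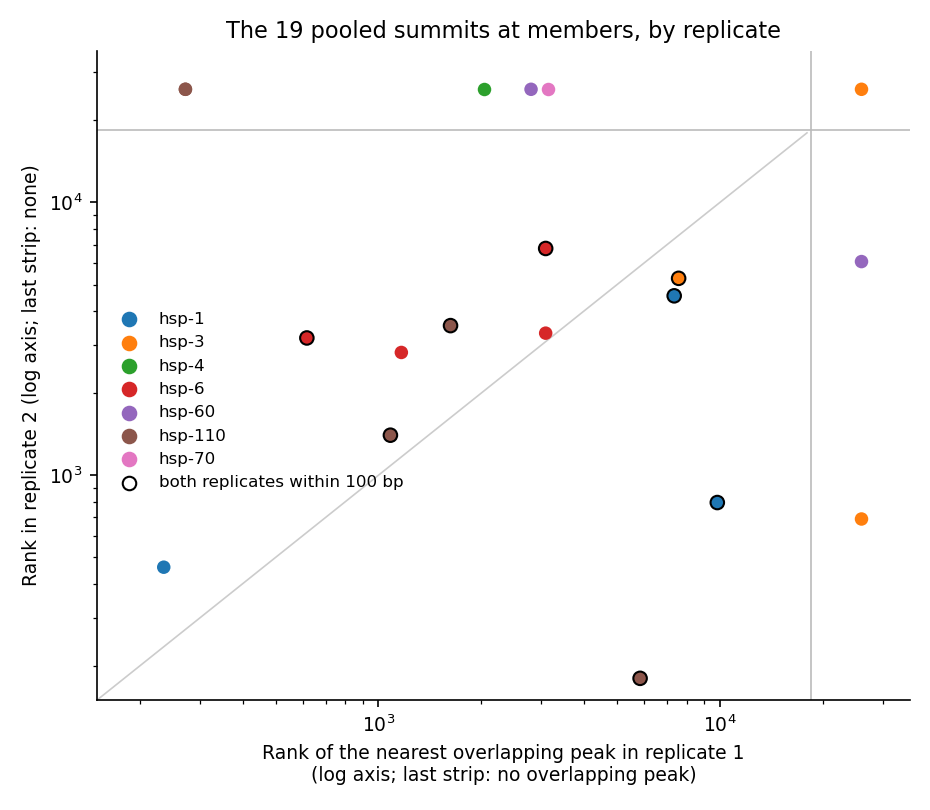
Each point is 1 of the 19 pooled summits at the 9 genes, placed by the rank of the nearest overlapping peak in replicate 1 (x, log axis) and replicate 2 (y, log axis), with a strip at the end of each axis for no overlapping peak and a black outline where both replicates had a summit within 100 bp. One hsp-1 point lies at ranks 235 and 460, the hsp-110 3' UTR point at 5840 and 180, and 2 hsp-110 points coincide at rank 272 in replicate 1 with no overlap in replicate 2.

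The peaks next to hsp-1 in the pooled order, leaving out those at tRNA, snRNA and snoRNA genes, were at genes of other kinds. They were at hil-5, a histone H1, with rank 378, and at eelo-2, a predicted M3 family peptidase, with 379. Below hsp-1 came C33B4.4 at 382, and a peak at 383 upstream of both C56C10.7 and icd-1, a BTF3 homolog. Their best ranks ran from 162 to 576 in replicate 1 and from 388 to 1158 in replicate 2, which spans the ranks of hsp-1. Over 1 pooled list, this is likeness of rank alone. The gene mes-4 itself had its best summit at rank 83 in the pooled list, 71 in replicate 1 and 267 in replicate 2. The line is transgenic for tagged MES-4 and the control was not analysed, so any part of the transgene in this peak was not tested.

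Other chaperone and stress response genes were counted in 8 lists, with 115 distinct genes matched, the 9 members included. Of these, 4 had a reproducible summit, against 1.45% of all protein-coding genes, and 73 a pooled one, against 34.3%. In replicate 1 79 had one, against 40.6% of all genes, and in replicate 2 83, against 39.5%. In all, 16 had a summit among the 1000 strongest pooled peaks, where 3.59% of all genes had one. The 4 were hsp-1, Y22D7AL.10, cct-8 and dnj-9. The gene cct-8 encodes the theta subunit of the cytosolic chaperonin CCT, and its peak, chrIV:1094145-1094584 with rank 278, lay 445 bp upstream, with ranks 214 and 553 in the replicates. The gene dnj-9 encodes an HSP40 (J domain) protein, and its peak, chrII:4851624-4852063 with rank 281, lay 212 bp upstream, with ranks 742 and 214. All 3 peaks other than that of hsp-1 were upstream of their gene.

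The counts by family stand beside the 34.3% of all protein-coding genes with a pooled summit, and nothing is called particular to a family from them. All 6 cytosolic HSP70, HSP110 and HSP90 genes had a pooled summit, and 3 had one among the 1000 strongest: hsp-1, hsp-110 and hsp-90 at rank 518. Of the 14 endoplasmic reticulum chaperones 11 had a pooled summit, with the best at crt-1, calreticulin, at rank 553. Of the 9 mitochondrial chaperones and proteases 6 had one. Of the 14 chaperonin CCT and prefoldin genes 10 had one, of the 29 HSP40 genes 17, and of the 12 co-chaperones of HSP70 and HSP90 6, with the best at hip-1 at rank 596. Of the 19 stress response regulators 15 had one, with the best at hsb-1, which encodes a binding protein of heat shock factor, at rank 535. Of the 16 small heat shock protein genes 5 had one, with the best at sip-1 at rank 701. The median length in this list was 813 bp, against 4405 bp for the regulators, and the share of genes with a summit rises with length as given above.

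The remaining inducible relatives were looked at by family, after their values were seen. The genes hsp-16.1, hsp-16.11, hsp-16.48 and hsp-16.49 had no summit in any of the 4 lists, so the 6 hsp-16 genes were alike in this. It is not particular to them, since the small heat shock protein genes hsp-12.6, hsp-17 and F08H9.4 had none either. At hsp-16.1, hsp-16.11, hsp-16.48 and hsp-16.49, however, every stretch of 50 bases in the gene and its upstream window occurs at least once more in the nuclear genome. None does at hsp-16.2 and hsp-16.41. How reads that match several places were treated is not given in the sources used here, and its part was not tested. The paired HSP70 genes F44E5.4 and F44E5.5 shared 1 pooled summit between them at rank 5422, with rank 2231 in replicate 2 and none in replicate 1. Of the stretches of 50 bases at F44E5.4, 87.2% were repeated. Among the 9 genes the highest repeated share was 0.531%, at hsp-1.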

How the data were processed

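Per the deposited file descriptions, relaxed peak lists were made by the authors for each replicate and for both pooled, with a control, and the reproducible list was drawn from these by the irreproducible discovery rate. Aligner, caller and thresholds were not given in the sources used here. The signal value of each peak (column 7) and its −log10 q value (column 9) are the authors' deposited values. Peaks were ranked by signal within each ce11 list. No peak ran past a chromosome's end in the WBcel235 annotation (Ensembl release 115). The 20 mitochondrial peaks of the reproducible list and those of the other lists were left out. The control was not analysed here.

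The 9 genes and the lists were chosen with earlier results of these data known. Gene lists came from general knowledge, and after annotation was checked 2 entries were removed (F11F1.1 and trap-1, which are annotated otherwise) and R151.7 was matched as hsp-75. Of the names, dnj-6 and hsf-2 matched no protein-coding gene. Beyond the 9 genes and mes-4, the text names reproducible genes of each list or else its highest-ranked gene, genes sharing a member's summit or position, and the pooled neighbours of hsp-1 by rank. Genes named outside this rule were chosen after their values were seen. Counting of summits was tested on simulated data. Python 3.11.15, numpy 2.4.6, pandas 2.3.3 and matplotlib 3.10.9 were used.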

Additional observations from a re-analysis of the deposited data

How the results depend on the processing

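The count of members with a reproducible summit was 1, against 1.45% of all protein-coding genes. It was 1 as well with the gene body alone, against 1.01%, and without peaks near small RNA genes, against 0.636%. It was 2 with 1000 bp upstream, against 1.75%, and 2 with any overlap of the peak, against 2.03%, through hsp-60 in both. It was 0 in the stronger of 2 equal parts of the reproducible list, against 0.691%, and 3 in the 1000 strongest pooled peaks, against 3.59%. With 1 replicate left out, the strongest 440 peaks of the other were used. The count was then 1 without replicate 1, against 1.49%, and 2 without replicate 2, against 1.52%. Without replicate 1 the member was hsp-110, at rank 180, and not hsp-1, whose best rank was then 794, and without replicate 2 the members were hsp-1 and hsp-110. The pooled count of 7 members stayed between 5 and 7, while the share of all genes ran from 20.8% to 40.6%. The lists' count of 4 genes was 1 with the gene body alone, against 1.01% of all genes. It was 16 in the 1000 strongest pooled peaks, against 3.59%. Without replicate 1 it was 6, against 1.49%, and without replicate 2 it was 5, against 1.52%. The best rank stayed within 1.5 times for 6 of 7 members with any overlap, where hsp-60 moved to 178, for 1 of 6 without replicate 1, and for 2 of 7 without replicate 2. Depth is unknown, so no lower limit of detection can be given for the hsp-16 genes. No paired analysis was possible because there was 1 group and no contrast.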
